A study of Mus musculus with 12 samples.

Results

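The 8 amino acid transporter genes Slc7a5, Slc3a2, Slc7a11, Slc7a1, Slc38a2, Slc1a5, Slc1a4 and Slc7a10 were followed in mouse white adipose tissue. They are 8 of the 18193 genes that the array's annotation names, and were measured by every probe set annotated to one of them alone, 16 of the 45037 probe sets that are not array controls. Of these, 11 passed a filter on low signal, against 26017 in the whole table, and each of the 8 genes kept at least 1 probe set. The mice had been fed CLA or, as controls, LA, and tissue was taken at 4, 12 and 24 h. The labels do not spell the diets out; CLA commonly stands for conjugated linoleic acid and LA for linoleic acid. The groups were, in full, CLA-fed and LA-fed mice at 4 h, at 12 h and at 24 h. The labels give the tissue as RP tissue and state no strain, sex, age or genotype, nor from when the hours were counted. Each group had 2 arrays. Every array was made from the pooled RNA of 5 mice, so n is 2 pools in each group and single mice are not resolved. The comparisons ask in which of these transporters CLA and LA fat differed at a given time, whether the size of that difference changed, and how each diet's pools differed between times.

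Amino acids cross the cell membrane through carriers that differ in substrate and in what drives them. Slc3a2 encodes the heavy chain that brings several light chains to the membrane, among them Slc7a5, which exchanges large neutral amino acids such as leucine, Slc7a11, which takes up cystine in exchange for glutamate, and Slc7a10, which carries small neutral amino acids such as serine, alanine and cysteine and is known as a surface protein of white adipocytes. Slc7a1 carries arginine and lysine without a heavy chain. Slc38a2 takes up small neutral amino acids together with sodium, and Slc1a5 and Slc1a4 are sodium-dependent exchangers of neutral amino acids, Slc1a5 with glutamine among its main substrates. Several of these genes are known targets of the transcription factor ATF4, which acts when amino acids run short or proteins misfold, and Slc7a11 is also a known target of NRF2, which acts under oxidative stress.

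The start regions of the members are shown because both factors are known to bind short motifs upstream of genes. Windows of 250 bases before the start were available for 6 of the 8 genes, 7 windows in all since Slc7a1 has 2, from RefSeq on GRCm38.p6. The C/EBP-ATF element was searched as TGATGNAA and the antioxidant response element as TGACNNNGC, on both strands. The 4 windows below run 5′ to 3′ on the gene's strand and end at the base before the start. Capitals mark a match to either motif.
Slc7a11 (chr3:50443614-50443863, minus strand): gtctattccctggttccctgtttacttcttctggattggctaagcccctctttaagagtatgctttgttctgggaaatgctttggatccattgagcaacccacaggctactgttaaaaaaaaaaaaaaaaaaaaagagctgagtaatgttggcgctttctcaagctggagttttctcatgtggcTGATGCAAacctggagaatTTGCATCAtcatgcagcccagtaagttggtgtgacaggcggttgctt
Slc3a2 (chr19:8713898-8714147, minus strand): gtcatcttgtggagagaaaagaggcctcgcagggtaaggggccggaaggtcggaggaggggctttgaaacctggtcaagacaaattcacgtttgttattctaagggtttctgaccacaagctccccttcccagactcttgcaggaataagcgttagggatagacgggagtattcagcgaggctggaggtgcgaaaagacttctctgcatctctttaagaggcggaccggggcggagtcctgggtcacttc
Slc7a1 (chr5:148399905-148400154, minus strand): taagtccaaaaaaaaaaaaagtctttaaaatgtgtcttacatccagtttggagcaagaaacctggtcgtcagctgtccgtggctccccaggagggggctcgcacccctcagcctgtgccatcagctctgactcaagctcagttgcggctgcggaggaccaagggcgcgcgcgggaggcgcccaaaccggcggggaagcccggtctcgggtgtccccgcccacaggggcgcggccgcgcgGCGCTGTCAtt
Slc38a2 (chr15:96699729-96699978, minus strand): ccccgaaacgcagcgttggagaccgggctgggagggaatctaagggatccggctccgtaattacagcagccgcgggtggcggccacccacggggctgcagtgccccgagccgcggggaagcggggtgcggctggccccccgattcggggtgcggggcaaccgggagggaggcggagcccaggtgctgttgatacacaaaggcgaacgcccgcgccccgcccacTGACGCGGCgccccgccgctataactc
Slc7a11 held 2 matches to TGATGNAA, TGATGCAA on the gene's strand at 66 to 59 bases before the start and TTGCATCA on the other strand at 47 to 40 bases. Slc7a1 held 1 match to TGACNNNGC, GCGCTGTCA on the other strand, 11 to 3 bases before the start, and Slc38a2 held 1, TGACGCGGC, 27 to 19 bases before it. The windows of Slc3a2, Slc1a4 and Slc7a10 and the other window of Slc7a1 held neither motif. Of 32851 windows of the same length, 3.45% held TGATGNAA and 10.2% held TGACNNNGC. The 2 motifs did not overlap in these windows. A match is a description of the letters and not a measured binding site. Only the 250 bases before the start and these 2 patterns were searched. Sites further upstream, within the gene or with other letters were not looked for, so a window without a match does not show that a gene lacks a site.

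Expression values below are the deposited intensities after each array was scaled to a trimmed mean of 500. An intensity of 100 was taken as the lowest measured signal, and 44.6% to 49.7% of probe sets reached it on an array. A log2 change is the CLA mean minus the LA mean of log2(scaled intensity + 16), with its standard error from limma. A fold is the ratio on that scale. At low signals the added 16 shrinks a fold, while a negative value set to 0 can widen it. For example, Slc38a2 1429593_at differed 7.51-fold at 4 h, or 2.78-fold with the LA array under 100 set to 100. Adjusted p-values are Benjamini-Hochberg values over all 26017 probe sets in limma, and a change is called at an adjusted p under 0.05. The 2 CLA pools of 4 h differed from each other more than other replicates did, with a log2 SD of 0.351, against 0.166 to 0.227 in the other 5 groups, so values of 4 h rest on less even pools. Actin gave 3.80 to 6.41 times as much 3′ as 5′ signal on the 12 h arrays, against 2.35 to 4.13 times on the others, a measure of RNA integrity, and replicate 2 had the larger ratio in 6 of 6 groups.

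The members were chosen with earlier results of these data known. An excess of calls over a background was therefore partly set by that choice, and the counts are given as description. At 24 h, 7 of the 11 tested transporter probe sets, from 6 of the 8 genes, passed, against a background of 14.3% of all probe sets. Slc7a5, Slc3a2, Slc7a1 with 2 probe sets, and Slc38a2 were higher in CLA pools (5 probe sets, background 6.91%), and Slc1a5 and Slc7a10 were lower (2 probe sets, background 7.34%). Slc7a5 passed the filter on low signal only through CLA arrays of 12 and 24 h, so its place in this count was partly set by the filter, and without it 6 of 10 passed, 4 of them higher. At 12 h, 2 of 11 passed, Slc3a2 and 1 probe set of Slc7a1, both higher in CLA pools, against a background of 2.01% in either direction and 0.999% for higher. At 4 h, 0 of 11 passed, against a background of 0.0423%, while 5 of 11 had an unadjusted p under 0.05 in limma. These were Slc3a2 and the tested probe sets of Slc7a1 and Slc38a2, all higher in CLA pools. The share of all probe sets at an unadjusted p under 0.05 was not computed. Such counts, here and below, are therefore not read as results about the members. In the authors' deposited table, 5 of the 16 member probe sets had a p under 0.05 at 4 h. After Benjamini-Hochberg adjustment 0 of them passed, against a background of 0.313%. The median log2 change of the 11 probe sets was 0.66, 0.36 and 0.84 at 4, 12 and 24 h, against 0.01, 0 and 0.05 over all probe sets tested. These medians include Slc7a5, whose changes rest on arrays under the measured limit and on the filter. They also count genes with several tested probe sets more than once, so they are description only.

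**Figure D1:**
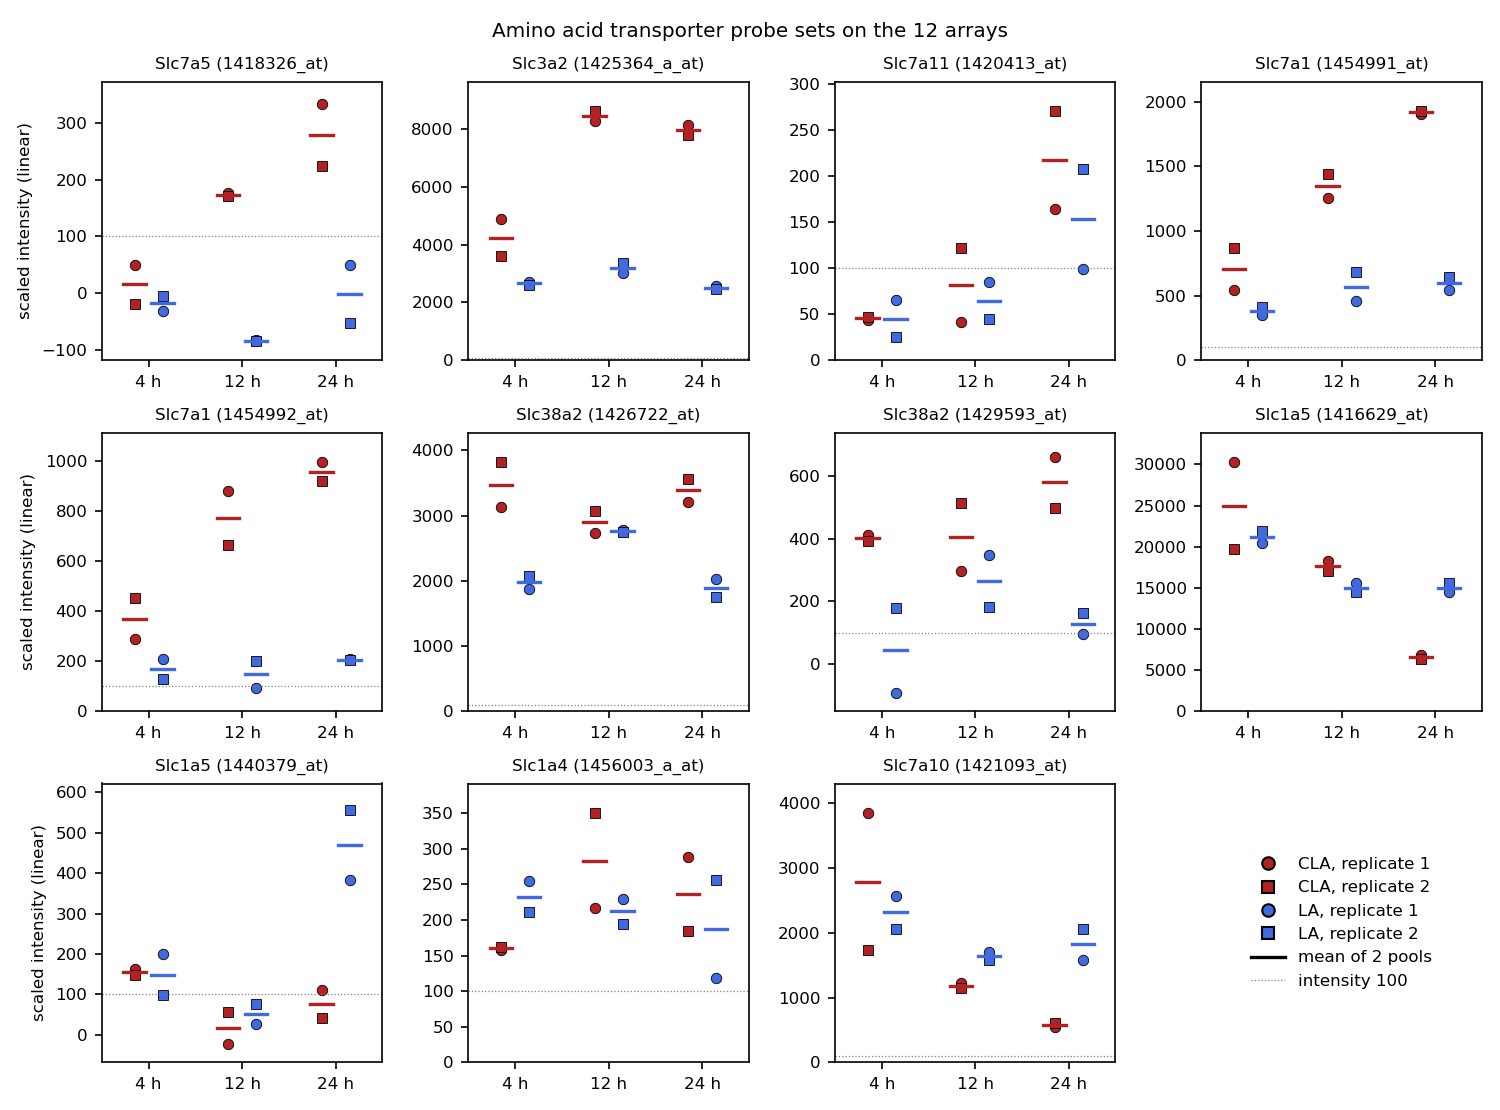
Scaled intensity (linear, vertical axes) of the 11 tested transporter probe sets on the 12 arrays by time (horizontal axes). Red points are CLA pools and blue points LA pools, circles are replicate 1 and squares replicate 2, bars are means of 2 pools and the dotted line is an intensity of 100. Both CLA pools of Slc3a2 lie above both LA pools at every time, and both CLA pools of Slc1a5 (1416629_at) and Slc7a10 lie below both LA pools at 24 h. Of all probe sets tested, 31.3%, 48.2% and 60.7% had diets that did not overlap, in either direction, at 4, 12 and 24 h.

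Slc3a2, the shared heavy chain, had the smallest adjusted p of the members at 12 and 24 h. Its probe set 1425364_a_at read 4866 and 3608 in the CLA pools of 4 h, against 2705 and 2609 in the LA pools. At 12 h it read 8252 and 8595 in CLA pools, against 3016 and 3370.1 in LA pools. At 24 h it read 8119 and 7767 in CLA pools, against 2558 and 2451 in LA pools. Both CLA pools lay above both LA pools at each of the 3 times. Over all 26017 probe sets, this was so for 15.6%, 23.2% and 32.2% at 4, 12 and 24 h. Both CLA pools lay below both LA pools for 15.8%, 25.1% and 28.6%. Pools that do not overlap are thus common, and for each transporter they are given as description only. The difference at 4 h was 0.66 ± 0.18 on the log2 scale and did not pass in limma (adjusted p = 0.460). Slc3a2 rose 2.63-fold at 12 h (log2 change 1.40 ± 0.18, limma adjusted p = 0.0133) and 3.15-fold at 24 h (1.66 ± 0.18, limma adjusted p = 0.00162). The call at 12 h was lost when any 1 of the 4 arrays of that time was left out, with limma adjusted p-values of 0.0726 and 0.0714 without CLA replicate 1 or 2 and of 0.0813 and 0.0832 without LA replicate 1 or 2, and was lost at 0.185 when only the 4 arrays of that time were fitted. The call at 24 h held in all 22 alternative settings, with an adjusted p of at most 0.0464. In order of mean level the groups were CLA 12 h, CLA 24 h, CLA 4 h, LA 12 h, LA 4 h and LA 24 h, with means of 8424 ± 243, 7943 ± 249, 4237 ± 890.1, 3193 ± 251, 2657 ± 68.2 and 2504 ± 75.3 (SD, n = 2 pools each), and no neighbours in that order overlapped.

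Slc7a5, the light chain for leucine and other large neutral amino acids, was near or below the measured limit except in CLA pools of 12 and 24 h. Probe set 1418326_at read 49.9 and -19.4 in CLA pools of 4 h, against -31.1 and -5.19 in LA pools. CLA pools of 12 h gave 177 and 170.5, against -83.0 and -85.1 in LA pools. CLA pools of 24 h gave 333 and 224, against 49.9 and -52.8 in LA pools. It passed the filter only through those 4 CLA arrays, so a difference there was built into its being tested. All 8 other arrays were under 100 and give only a bound. At 24 h Slc7a5 was at least 2.49-fold higher in CLA pools (means 278 ± 77.3 in CLA and -1.45 ± 72.7 in LA, SD, n = 2 pools each) with a limma adjusted p of 0.0280. At 12 h it was at least 1.64-fold higher with a limma adjusted p of 0.0562, which did not pass, and it passed in 10 of 22 alternative settings, with 0.0367 when 1 probe set per gene was tested, 0.0345 without either CLA array of 4 h and 0.0468 without either LA array of 24 h. The 24 h call was lost without CLA 24 h replicate 1, CLA 24 h replicate 2 or LA 24 h replicate 2, with limma adjusted p-values of 0.129, 0.102 and 0.125, at 0.0620 when no filter on low signal was used and at 0.104 when only the 4 arrays of that time were fitted. At 4 h both diets were under the limit, so no fold is given.

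Slc7a1, the carrier of arginine and lysine, was measured by 3 probe sets, of which 1421533_at stayed under 100 on all 12 arrays, at most 69.8. Probe set 1454991_at read 543 and 872 in CLA pools of 4 h, against 353 and 414 in LA pools. Its 12 h values were 1255 and 1441 in CLA pools, against 461 and 681 in LA pools. Its 24 h values were 1908 and 1925 in CLA pools, against 547 and 646 in LA pools. CLA pools lay above LA pools at each time. The second probe set, 1454992_at, gave the same order of diets. It read 288 and 453 in CLA pools of 4 h, against 209.6 and 128 in LA pools. In the 12 h samples it read 881 and 667 in CLA pools, against 95.4 and 200.2 in LA pools. In the 24 h samples it read 996 and 919.9 in CLA pools, against 208 and 204 in LA pools. Here too both CLA pools lay above both LA pools at each time. Slc7a1 rose at 24 h by both probe sets, 3.16-fold (log2 change 1.66 ± 0.27, limma adjusted p = 0.00726) and 4.38-fold (2.13 ± 0.37, limma adjusted p = 0.00885). At 12 h 1454992_at rose 5.04-fold (2.33 ± 0.37, limma adjusted p = 0.0259), or 4.94-fold with the dim LA array set to 100, and 1454991_at differed 2.36-fold without passing (1.24 ± 0.27, limma adjusted p = 0.0642). At 4 h the log2 differences were 0.83 ± 0.27 and 1.07 ± 0.37 (limma adjusted p = 0.545 and 0.577).

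The calls of Slc7a1 depended on single arrays. The 12 h call of 1454992_at was lost without any 1 of the 4 arrays of 12 h, with limma adjusted p-values of 0.136 and 0.0781 without CLA replicate 1 or 2 and 0.101 and 0.0507 without LA replicate 1 or 2. It was also lost without either CLA array of 24 h (0.0593 both times), without the filter on low signal (0.0504) and when only the 4 arrays of that time were fitted (0.20). At 24 h 1454992_at was lost without CLA replicate 1 (0.0527) or CLA replicate 2 (0.0553), and 1454991_at without CLA replicate 2 (0.0526). The value of 1454991_at at 12 h passed in 9 of 22 alternative settings, among them without either CLA array of 4 h (0.0404 both times), with no scaling (0.0266), with 1 probe set per gene (0.0394) and with a variance trend (0.00851).

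Slc38a2, the sodium-coupled carrier of small neutral amino acids, was higher in CLA pools at 24 h, and a difference of like size at 4 h did not pass. Probe set 1426722_at read 3139 and 3817 in CLA pools of 4 h, against 1874 and 2078 in LA pools. At 12 h it read 2729.6 and 3071 in CLA pools, against 2781 and 2746 in LA pools. At 24 h it read 3208 and 3568 in CLA pools, against 2025 and 1749.9 in LA pools. The diets overlapped at 12 h and not at 4 or 24 h. Slc38a2 rose 1.79-fold at 24 h (log2 change 0.84 ± 0.18, limma adjusted p = 0.0181). At 4 h the change was 0.81 ± 0.18 with a 95% interval of 0.41 to 1.21 (limma adjusted p = 0.319), and at 12 h it was 0.07 ± 0.18 with an interval of -0.34 to 0.47 (limma adjusted p = 0.915). The LA mean was 2764 ± 24.9 at 12 h, against 1976 ± 145 at 4 h and 1887 ± 194 at 24 h (SD, n = 2 pools each), while the CLA means were 3478 ± 479, 2900.2 ± 241 and 3388 ± 254 at 4, 12 and 24 h. The difference of the diet effect between 12 and 4 h was -0.74 ± 0.25 (limma adjusted p = 0.458) and that between 24 and 12 h was 0.77 ± 0.25 (0.178), so neither passed. The 24 h call was lost without CLA 24 h replicate 1 (0.0663), CLA 24 h replicate 2 (0.123) or LA 24 h replicate 2 (0.0961), and when only the 4 arrays of that time were fitted (0.090).

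The other probe sets of Slc38a2 were weaker. Probe set 1429593_at read 413 and 392 in CLA pools of 4 h, against -90.3 and 179.9 in LA pools. CLA pools of 12 h gave 298 and 514, against 349 and 181 in LA pools. CLA pools of 24 h gave 659 and 499, against 96.5 and 163 in LA pools. The diets again overlapped at 12 h only, and no time passed (limma adjusted p = 0.565, 0.851 and 0.205 at 4, 12 and 24 h). Its 24 h difference of 2.06 ± 0.97 on the log2 scale passed without either LA array of 4 h (0.0212 both times), whose 2 values lie far apart. Probe set 1429594_at reached 100 on 1 array, at 113, and was not tested.

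Slc1a5, the exchanger with glutamine among its substrates, was lower in CLA pools at 24 h, and its differences at 4 and 12 h did not pass. Its probe set 1416629_at was bright, at 9.20% to 33.7% of the highest value on an array, and read 30247 and 19729 in CLA pools of 4 h, against 20423 and 21969 in LA pools. Its 12 h values were 18317 and 17080.2 in CLA pools, against 15566 and 14477 in LA pools. Its 24 h values were 6804 and 6399 in CLA pools, against 14456 and 15576 in LA pools. The diets overlapped at 4 h, the CLA pools were the higher ones at 12 h, and they were the lower ones at 24 h. Slc1a5 fell 2.27-fold at 24 h (log2 change -1.18 ± 0.21, limma adjusted p = 0.0104), whereas the changes of 0.21 ± 0.21 at 4 h and 0.24 ± 0.21 at 12 h did not pass (limma adjusted p = 0.929 and 0.697). The 4 h value was -0.10 without CLA 4 h replicate 1. The 24 h call was lost without CLA 24 h replicate 1 (0.0516), CLA 24 h replicate 2 (0.0750) or LA 24 h replicate 2 (0.0589), and when only the 4 arrays of that time were fitted (0.0567). In order of mean level the groups were CLA 4 h, LA 4 h, CLA 12 h, LA 12 h, LA 24 h and CLA 24 h, and only CLA 4 h with LA 4 h and LA 12 h with LA 24 h overlapped as neighbours.

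The dim probe set of Slc1a5, 1440379_at, read 162 and 148 in CLA pools of 4 h, against 199 and 98.7 in LA pools. In the 12 h samples it read -21.8 and 56.9 in CLA pools, against 26.5 and 75.6 in LA pools. In the 24 h samples it read 110.4 and 40.7 in CLA pools, against 383 and 555 in LA pools. Both CLA pools lay below both LA pools at 24 h, as with the bright probe set, and the difference was 3.94-fold with the dim CLA array set to 100 (limma adjusted p = 0.0587, not passing). It passed in 7 of 21 alternative settings. Among them were no scaling (limma adjusted p = 0.000656), an offset of 64 (0.00893) and fits without either CLA array of 12 h. A floor at 100, chosen after seeing the data, was another. Unlike the bright probe set, its highest group was LA 24 h, at 469 ± 121 (SD, n = 2 pools). Its LA pools of 24 h did not pass against those of 12 h or 4 h (limma adjusted p = 0.304 and 0.64). A disagreement of the probe sets over time within the LA pools is therefore not shown.

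Slc7a10, the serine and alanine carrier of white adipocytes, was also lower in CLA pools at 24 h. Probe set 1421093_at read 3838 and 1738 in CLA pools of 4 h, against 2572 and 2054 in LA pools. At 12 h it read 1217 and 1143 in CLA pools, against 1702 and 1573 in LA pools. At 24 h it read 547 and 601 in CLA pools, against 1583 and 2053 in LA pools. The diets overlapped at 4 h, where the CLA pools lay on both sides of the LA pools, and CLA pools were the lower ones at 12 and 24 h. Slc7a10 fell 3.09-fold at 24 h (log2 change -1.63 ± 0.34, limma adjusted p = 0.0181). The changes at 12 h, -0.47 ± 0.34, and at 4 h, 0.17 ± 0.34, did not pass (limma adjusted p = 0.608 and 0.969), and the 4 h value was -0.40 without CLA 4 h replicate 1. The 24 h call was lost without CLA 24 h replicate 1 (0.0907), CLA 24 h replicate 2 (0.0875) or LA 24 h replicate 2 (0.0959), and when only the 4 arrays of that time were fitted (0.0533).

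Markers of the cells in the tissue moved at 24 h as well. White adipocyte markers were bright, and the summed intensity of the 4 on the array, Fabp4, Adipoq, Cidec and Lep, was 110881 to 115926 in CLA pools of 24 h, against 164666 to 173174 in LA pools, so the CLA mean was 67.1% of the LA mean. Adipoq, Cidec and Lep fell (3 of 4), and Fabp4 did not pass. With 1 probe set per gene, 8.86% of all genes fell and 8.32% rose at 24 h. Neutrophil markers summed to 2244 to 3309 in CLA pools of 24 h, against 430 to 607 in LA pools, and S100a8 and S100a9 rose. Csf3r also passed, but it reached 100 only on the CLA arrays of 24 h and was tested only through them, and Cxcr2 stayed under 100 on all arrays. Of 6 macrophage markers 0 passed in limma at 24 h (2 at an unadjusted p under 0.05), with sums of 17013 to 19720 in CLA pools and 13766 to 15642 in LA pools. At 12 h 0 of 4 white adipocyte markers and 0 of 3 neutrophil markers passed in limma (1 of each at an unadjusted p under 0.05), while skeletal muscle markers summed to 2912 to 4267 in CLA pools, against 1451 to 1526 in LA pools, with 0 of 5 passing and 0 at an unadjusted p under 0.05. The CLA pools of 4 h differed from each other in some markers. In replicates 1 and 2, skeletal muscle markers summed to 1691 and 3671 and mesothelium markers to 3129 and 1141. Macrophage markers were even there, at 15400 and 15576. All 3 kidney markers, Cd3d and Cd3e stayed under 100 on all arrays. In such bulk RNA, fewer cells of a type and less RNA per cell cannot be told apart, and the part of these shifts in the transporter values was not tested.

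Neither Slc7a11 nor Slc1a4 passed between diets at any time. Slc7a11, the cystine carrier, read 44.4 and 47.4 by 1420413_at in CLA pools of 4 h, against 65.5 and 24.9 in LA pools. CLA pools of 12 h gave 41.5 and 122, against 84.7 and 44.7 in LA pools. CLA pools of 24 h gave 164 and 270.5, against 99.8 and 208 in LA pools. The diets overlapped at each time and the signal was near the limit before 24 h. The 24 h change was 0.49 ± 0.54 with a 95% interval of -0.76 to 1.74 (limma adjusted p = 0.606), so a difference of the size seen for Slc3a2 at that time is within the interval. Its second probe set, 1443536_at, was under 100 on all arrays, at most 50.9.

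Slc1a4, the exchanger of alanine, serine and cysteine, read 158 and 162 by 1456003_a_at in CLA pools of 4 h, against 254 and 211 in LA pools. Its 12 h values were 217 and 349.6 in CLA pools, against 229 and 195 in LA pools. Its 24 h values were 288 and 184 in CLA pools, against 118 and 256 in LA pools. The CLA pools were below the LA pools at 4 h and overlapped them at 12 and 24 h. The log2 changes were -0.49 ± 0.37, 0.36 ± 0.37 and 0.37 ± 0.37 at 4, 12 and 24 h (limma adjusted p = 0.883, 0.747 and 0.566). Probe sets 1423549_at, with 1 array at 100 or more, and 1423550_at, at most 65.7, were not tested.

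**Figure D2:**
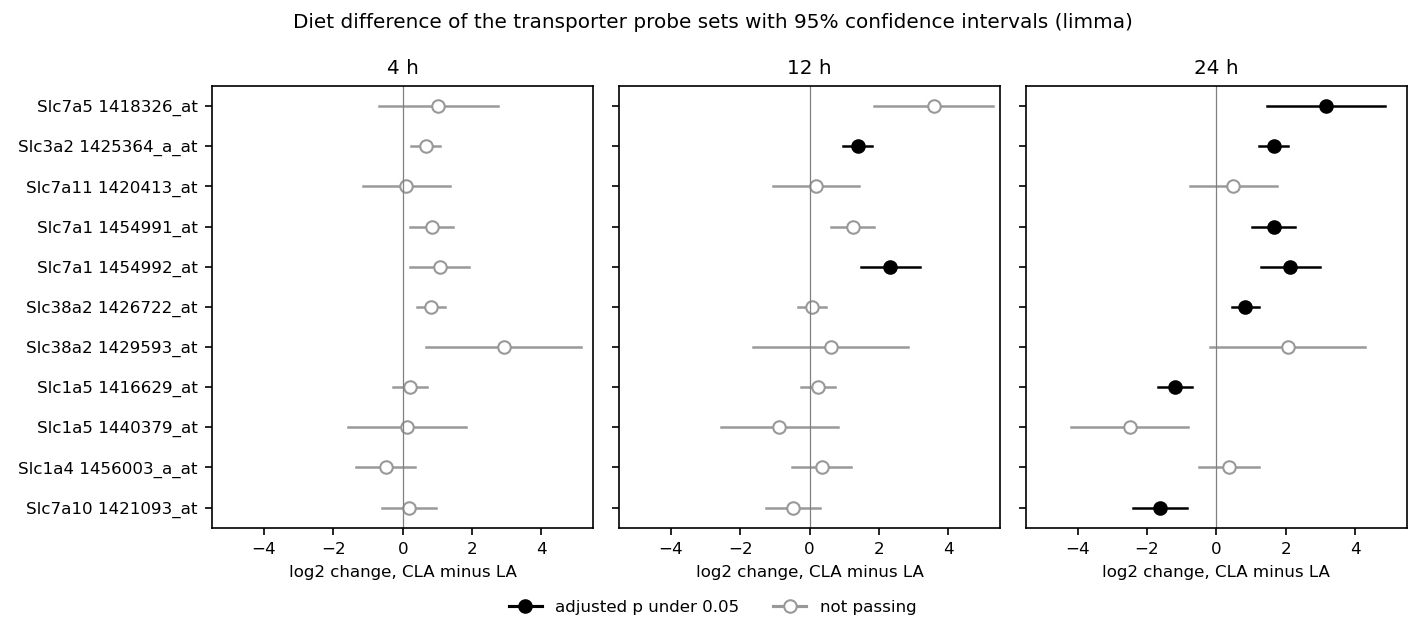
Log2 change between CLA and LA pools (horizontal axes, CLA minus LA) of the 11 tested probe sets at 4, 12 and 24 h, with 95% confidence intervals from limma on 2 pools a group. Filled points have an adjusted p under 0.05 and open points do not. There are 0 filled points at 4 h, 2 at 12 h and 7 at 24 h, of which Slc1a5 and Slc7a10 lie left of 0.

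Averaged over the 3 times, 5 of the 11 probe sets passed, all higher in CLA pools, against a background of 9.64% in either direction and 4.69% for higher. They were Slc3a2 (log2 change 1.24 ± 0.10), both tested probe sets of Slc7a1 (1.24 ± 0.16 and 1.84 ± 0.21), Slc38a2 (0.57 ± 0.10) and Slc7a5, with limma adjusted p-values of 0.00078 to 0.0124. For Slc7a5 no averaged change is given, since all 6 LA arrays were under 100 and it was tested only through CLA arrays. Without it 4 of 10 passed. Slc7a10 averaged -0.64 ± 0.20 (limma adjusted p = 0.0824) and Slc1a5 -0.25 ± 0.12 (0.262). Both passed without CLA 4 h replicate 1 (0.00975 and 0.0482).

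The change of the diet effect between times was tested in the same fit. None of 33 tests, 11 probe sets in each of 3 comparisons, passed in limma, against backgrounds of 0, 0.488 and 3.04% for 12 against 4 h, 24 against 12 h and 24 against 4 h. An unadjusted p under 0.05 was found for 4, 3 and 4 of 11. For 24 against 4 h the smallest adjusted p-values were those of Slc1a5, with -1.39 ± 0.30 (limma adjusted p = 0.0517), Slc3a2, with 1.0 ± 0.25 (0.0779), and Slc7a10, with -1.80 ± 0.48 (0.0881). The count was 2 without CLA 4 h replicate 1 and 3 without CLA 4 h replicate 2. A transporter that passed at 24 h and not at 4 or 12 h was therefore not shown to differ between these times.

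Between times within a diet, none of 33 tests passed among the LA pools in limma, with backgrounds of 0% in all 3 comparisons and with 3, 2 and 2 of 11 at an unadjusted p under 0.05. Among the CLA pools, 7 of 11 probe sets passed at 24 against 4 h, with backgrounds of 20% in either direction, 10.5% for higher and 9.49% for lower. Slc3a2 rose 1.89-fold and Slc7a1 rose 2.74-fold and 2.57-fold by its tested probe sets (limma adjusted p = 0.0119, 0.00994 and 0.0356). Slc7a5 was at least 2.49-fold higher at 24 h (0.0226), but the CLA arrays of 12 and 24 h were the only ones through which it passed the filter, and without it 6 of 10 passed. Slc7a11 was at least 1.96-fold higher at 24 h (limma adjusted p = 0.0453). In the LA pools it was at least 1.39-fold higher over the same times and did not pass (limma adjusted p = 0.557). Without the bound, its log2 changes were 1.87 ± 0.54 in CLA pools and 1.48 ± 0.54 in LA pools. Slc1a5 fell 3.70-fold (limma adjusted p = 0.00173) and Slc7a10 4.42-fold (0.00535). For 24 against 12 h in CLA pools 1 of 11 passed, Slc1a5 with -1.42 ± 0.21 (limma adjusted p = 0.0126, backgrounds 5.87% in either direction and 2.54% for lower), and for 12 against 4 h 0 of 11 did in limma (background 0.992%, 6 of 11 at an unadjusted p under 0.05). These comparisons share the CLA arrays of 24 h with the diet comparison at 24 h. Without CLA 24 h replicate 1 or without CLA 24 h replicate 2 the 3 comparisons of CLA pools held 2 calls in place of 8.

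The authors' deposited table gave the same directions for the calls at 12 and 24 h, with sizes that were alike for some probe sets and not for others. The side of the ratio that holds CLA is not in its headers and was read as the numerator from the values of these same arrays. The shared directions are therefore no independent result. In the authors' deposited table Slc3a2 was 1.57-fold, 2.61-fold and 3.16-fold higher at 4, 12 and 24 h. In the authors' deposited table Slc1a5 (1416629_at) was 1.99-fold lower and Slc7a10 3.93-fold lower at 24 h. There Slc7a1 1454992_at was 3.65-fold and 2.82-fold higher at 12 and 24 h, against 5.04-fold and 4.38-fold in the limma fit. For Slc7a1 1454991_at the authors' folds were 2.43 and 2.94, against 2.36 and 3.16 in the limma fit. After Benjamini-Hochberg adjustment of the p-values in the authors' deposited table, 4 of 16 member probe sets passed at 12 h (background 5.1%), those of Slc7a5, Slc3a2 and 2 of Slc7a1. At 24 h 8 of 16 passed in the authors' deposited table (background 13%), those of Slc3a2, Slc1a5 and Slc7a10, 2 of Slc7a1, 2 of Slc38a2 and the dim one of Slc1a5, while Slc7a5 did not.

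Other genes of amino acid handling were counted with 1 probe set per gene, with the same adjusted p-values. These lists and those of the next paragraphs were also chosen with earlier results of these data known. Their counts beside a background are therefore description only. Of 30 other amino acid transporters tested, of 46 listed, 0 passed at 4 h in limma (3 at an unadjusted p under 0.05, backgrounds 0.0396% higher and 0% lower). At 12 h 0 rose and 1 fell (backgrounds 1.28% and 1.31%), and at 24 h 2 rose and 2 fell (backgrounds 8.32% and 8.86%). The counts at 24 h are near their backgrounds and that at 12 h is 1 gene, so neither is a result about the list. Slc36a1, a lysosomal carrier of small amino acids, read 73.5 and 40.7 in CLA pools of 12 h, against 225 and 220.2 in LA pools, at least 2.06-fold lower (limma adjusted p = 0.0279). Slc43a2, a carrier of large neutral amino acids, read 626 and 652 in CLA pools of 24 h, against 298 and 229.9 in LA pools, a 2.36-fold rise (limma adjusted p = 0.00574). Slc16a10, which carries aromatic amino acids, rose 2.29-fold (0.0477), and Slc36a2 and Slc38a10 fell 1.6-fold and 1.5-fold (0.0279 and 0.0466). The counts at 24 h were 1 without either CLA array of 24 h and 2 without any 1 of the arrays LA 4 h replicate 1, LA 4 h replicate 2 and the 4 of 12 h. The call of Slc36a1 at 12 h was lost without any 1 of these 8 arrays or of the LA arrays of 24 h.

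Of 26 tested amino acid stress targets of ATF4 outside the transporters, 2 rose at 4 h, 9 at 12 h and 8 at 24 h, and 4 fell at 24 h and none earlier. Over all genes the backgrounds for higher were 0.0396%, 1.28% and 8.32% at these times, and 8.86% for lower at 24 h. Chac1, which breaks down glutathione, read 3649 and 3324 in CLA pools of 4 h, against 606 and 613 in LA pools (limma adjusted p = 0.0105). Trib3, a pseudokinase induced by stress, read 1808 and 1587 in CLA pools of 12 h, against 149 and 168 in LA pools (0.00695). Atf3, a stress transcription factor, rose at all 3 times, with log2 changes of 2.63 ± 0.27, 2.85 ± 0.27 and 2.97 ± 0.27 at 4, 12 and 24 h (limma adjusted p = 0.0345, 0.00450 and 0.000821). Sesn2 was at least 1.65-fold higher at 12 h (0.0485), and Trib3 and Ppp1r15a rose 4.91-fold and 4.55-fold at 24 h. The genes that fell at 24 h were led by Vldlr, a lipoprotein receptor, with a log2 change of -1.95 ± 0.20, Gpt2, an alanine aminotransferase, with -1.28 ± 0.16, and Psph, of serine synthesis, with -1.11 ± 0.22 (limma adjusted p = 0.00121, 0.00292 and 0.0139). The 4 h count was 0 without either LA array of 4 h or either CLA array of 24 h and 1 without any 1 of the arrays of 12 h or the LA arrays of 24 h. The 12 h count was 5 without CLA 12 h replicate 1 or LA 12 h replicate 1 and 4 without LA 12 h replicate 2.

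Of 15 tested genes of the NRF2 and glutathione list, 1 rose at 4 h, 3 at 12 h and 7 at 24 h, and 1 fell at 24 h, with the same backgrounds of 0.0396%, 1.28% and 8.32% for higher and 8.86% for lower at 24 h. Hmox1, which degrades heme, rose 4.38-fold, 6.08-fold and 7.24-fold at 4, 12 and 24 h (limma adjusted p = 0.0345, 0.00349 and 0.000446). Srxn1, which repairs oxidised peroxiredoxins, read 9463 and 10158 in CLA pools of 24 h, against 894 and 1006 in LA pools, a 10.2-fold rise (7.49e-05). It rose 5.58-fold at 12 h (0.00195), when Gclm, of glutathione synthesis, rose 4.83-fold (0.00256). Gss, of the same pathway, rose 5.48-fold at 24 h (0.00287), and Gsta4, a glutathione transferase, fell 1.98-fold (0.00776). The count at 4 h was 0 without any 1 array other than CLA 4 h replicate 2, and without CLA 24 h replicate 2 that at 24 h was 5. Of 24 tested genes of amino acid sensing by mTORC1, 0 passed at 4 and 12 h in limma (1 and 2 at an unadjusted p under 0.05), and at 24 h 1 rose and 3 fell, which is near the backgrounds of 8.32% and 8.86% and is no result about the list. Fnip2, a partner of folliculin, rose 1.96-fold (0.0137), while Lamtor4 and Lamtor2, subunits of the lysosomal Ragulator complex, fell 2.53-fold and 2.0-fold (0.0108 and 0.0474) and Sesn3, a sestrin, fell 2.43-fold (0.0139). That count was 2 without CLA 24 h replicate 1, 1 without CLA 24 h replicate 2 or LA 24 h replicate 1, and 0 without LA 24 h replicate 2.

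**Figure D3:**
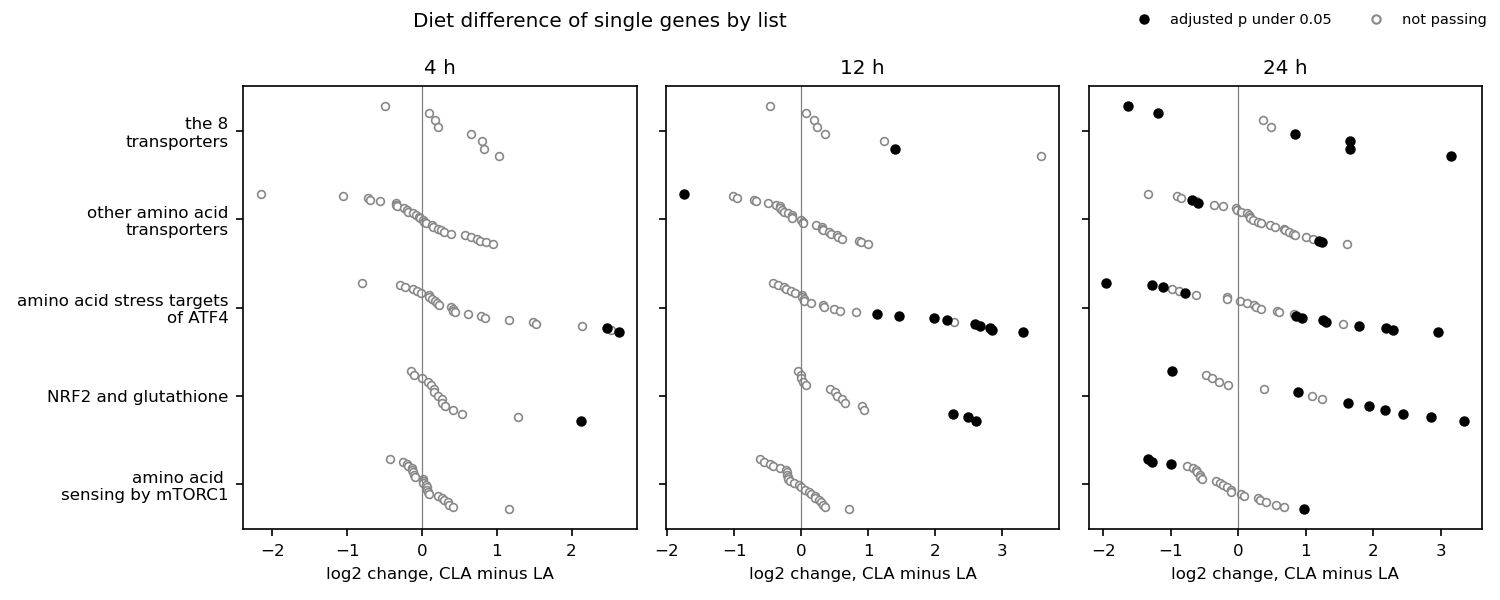
Log2 change between CLA and LA pools (horizontal axes, CLA minus LA) at 4, 12 and 24 h, with 1 point per gene (brightest probe set) for the 8 transporters and 4 other lists, sorted within a list. Filled points have an adjusted p under 0.05 in limma and open points do not. At 12 h the 9 filled points of the ATF4 list and the 3 of the NRF2 and glutathione list lie right of 0, and at 24 h filled points lie on both sides in all 5 lists.

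The genes whose 12 values were most like those of each transporter were found by the root mean square difference of centred log2 values, among 8383 genes with a mean log2 value of 8 or more. For Slc7a10 they were Phlda3, Nat8l and Sh3glb2, at 0.129 to 0.139 on the log2 scale. For Slc1a5 they were Sult1a1, Atp5a1 and Mtarc2, at 0.140 to 0.169. For Slc3a2 they were Mocos, Zfp655 and Dnajb2, at 0.209 to 0.223, and for Slc7a1 Tlr2, Arid5b and Bach1, at 0.221 to 0.250. For Slc38a2 they were Rlf, Tatdn2 and Etfbkmt, and for Slc1a4 Eif4b, Rfxap and Marchf8, at 0.180 to 0.235 over both. For the dim transporters they were Pknox1, Slc11a2 and Sfi1 for Slc7a11, at 0.386 to 0.503, and Srxn1, Mllt11 and Cxcl10 for Slc7a5, at 0.787 to 0.835. This measure grows with a gene's own spread, so its size ranks no transporter against another. All these values share the same 12 arrays.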

How the data were processed

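Total RNA of white adipose tissue, extracted with Trizol and labelled with biotin per the labels' protocols, was measured on 12 Affymetrix arrays, each of 5 pooled mice. Per the file headers, the deposited table holds 1 intensity per probe set and array, on a linear scale. The probe summary method is not given in the sources used here. The deposited means of 91.5 to 125.1 were unequal, and 15.7% to 18.8% of values on an array were at or below 0. The authors also deposited, per the file headers, for each time and probe set a ratio, its fold change, its log10 value, an error of that value and a p-value, with neither test nor direction stated. Those log ratios were set against the arrays' own differences (CLA minus LA), with Pearson's r = 0.879, 0.964 and 0.977 at the same time (4, 12 and 24 h), across 10275 probe sets, which are not independent, and at most 0.536 at other times, so CLA was taken as the numerator.

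From the deposited intensity, each array was scaled to a mean of 500 after 2% of values were left out at each end, negative values became 0, and log2(value + 16) was computed. Array controls (64 probe sets) were dropped, and probe sets with at least 2 of 12 arrays at 100 or more were kept. Where every array of a group was under 100, its arrays were set to 100 to give a lower bound of the fold (likewise for 1 dim array where said). The 6 group means were fitted in limma 3.58.1 (R 4.3.3, lmFit and eBayes). The fit was also run on simulated independent normal values with spreads shuffled over probe sets and none set to 0. That run cannot show how the fit behaves for dim probe sets. Two-sided p-values were corrected by the Benjamini-Hochberg method. Labels call the arrays biological replicates, and the number of arrays limits the precision. Gene names came from the platform annotation, with 34958 probe sets of 1 symbol, 932 of several and 9160 of none. Plin1 and some genes of the lists were not analysed here.

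The members and lists were chosen with earlier results of these data known. The genes named were all members, per list, time and direction the passing genes of largest change (up to 3), and the 3 genes most like each member. Alternatives changed the scaling, the offset, the filter, the probe sets per gene, the arrays fitted, the variance trend, the replicate block and the floor, and left out each array in turn.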

Additional observations from a re-analysis of the deposited data

Results flagged for a closer look

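Slc1a5 (1416629_at) was marked because its diet difference had opposite signs at 2 times. Both CLA pools lay above both LA pools at 12 h, and both lay below them at 24 h. Over all probe sets, 23.2% were higher without overlap at 12 h and 28.6% were lower without overlap at 24 h. The 12 h difference of Slc1a5, 0.24 ± 0.21, did not pass (limma adjusted p = 0.697). The diet effect at 24 h minus that at 12 h was -1.42 ± 0.30 on the log2 scale, with a limma adjusted p of 0.0873, so the test of the difference did not pass.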

How the results depend on the processing

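At 4 h the count of transporter probe sets passing was 0 in all 22 alternative settings. At 12 h the count of 2 became 4 with no scaling, with an offset of 64, with at least 4 arrays at 100, with the replicate block and with a floor at 100, the last chosen after seeing the data. It became 1 with no filter and 0 with only the arrays of that time, and ranged from 0 to 4 with 1 array left out. At 24 h the count of 7 became 3 with only the arrays of that time and ranged from 1 to 8 with 1 array left out. Averaged over times, the count of 5 became 8 with no scaling or with a floor at 100 and ranged from 5 to 7 with 1 array left out. For the diet effect between times, the count of 0 became 4 with no scaling, 1 with quantile normalization, 1 with an offset of 64, 3 with 1 probe set per gene and 7 with a floor at 100, and ranged from 0 to 3 with 1 array left out. The LA pools between times gave 1 in place of 0 with no scaling. The CLA pools between times gave 13 in place of 8 with no scaling and 2 to 11 with 1 array left out. Leaving out an array or fitting only 1 time leaves fewer arrays, and a lone array is assumed to vary like the other groups; otherwise the cause was not tested.

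Deviations of same-numbered replicates correlated at -0.369 to 0.42 over 15 pairs of groups, 11 of them over 0.1 and 1 under -0.1. The labels do not tie the numbers to a shared batch, so whether they pair the samples is not settled. The replicate block turned Slc7a5 (limma adjusted p = 0.0448) and Slc7a1 1454991_at (0.0355) into calls at 12 h and gave 7 calls at 24 h and 7 among CLA pools between times. Of 945 values of single probe sets under the alternatives, 854 kept direction and call, 33 lost the call, 43 gained it and 15 turned sign, and 0 of the 15 had passed. With no scaling, Slc7a11 and Slc1a5 (1440379_at) turned to -0.03 and -0.04 at 4 h and Slc38a2 (1426722_at) to -0.06 at 12 h. With 1 array left out, the values at 4 h ranged from -0.40 to 0.60 for Slc7a11, -0.10 to 0.52 and -0.33 to 0.58 for the 2 probe sets of Slc1a5 and -0.40 to 0.74 for Slc7a10. At 12 h they ranged from -0.45 to 0.82 for Slc7a11, -0.02 to 0.15 for Slc38a2 and -1.97 to 0.23 for Slc1a5 (1440379_at). For Slc1a4 they ranged from -0.14 to 0.88 at 24 h and from -0.09 to 0.25 averaged over times. Over all probe sets, the count of 11 at 4 h ranged from 0 to 60, that of 524 at 12 h from 0 to 1294 and that of 3708 at 24 h from 653 to 5414. Signal limits Slc7a5, Slc7a11 and Slc1a5 (1440379_at), which were under 100 on several arrays.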
